A study of Mus musculus with 2 samples.

Results

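The clustered protocadherins are cadherin-superfamily adhesion molecules encoded in 3 neighbouring gene clusters, alpha, beta and gamma, and were examined here in the embryonic mouse cortex with and without an intact Rcor2 gene. Members were taken by symbol, as every gene named Pcdha, Pcdhb, Pcdhga, Pcdhgb or Pcdhgc followed by a number, or Pcdhac followed by a number. This gave 58 of the 21896 genes common to both libraries, namely 14 alpha, 22 beta and 22 gamma genes. Rcor2 encodes a co-repressor that works with the histone demethylase LSD1. RNA was taken from the proliferative zones (VZ–SVZ, ventricular and subventricular) lining the cortex of C57/BL6 embryos at E13.5, with 1 library from Rcor2fl/fl embryonic tissue, in which the floxed gene is intact, and 1 library from Rcor2cko tissue, in which NesCre recombines the floxed allele, whose first exons lie between loxP sites. The Nestin promoter drives Cre mainly in neural progenitors and their descendants, and the tissue also holds other cells, such as vessels and microglia. Whether a library came from 1 embryo or a pool is not given in the sources used here. The study's name Rcor2cko stands for Rcor2fl/fl with NesCre, so by that naming the Rcor2fl/fl embryos were without NesCre. With 1 library per genotype there was no replicate check, so each difference below compares these libraries, without a p-value.

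Each alpha or gamma mRNA joins 1 large variable exon, with a promoter of its own, to 3 exons that all members of that cluster share, whereas beta genes have no shared part and mostly consist of a single large exon. In the GENCODE vM1 annotation, 18 of the 22 beta genes have only transcripts of 1 exon. The variable exon encodes the extracellular cadherin repeats, the membrane span and a short cytoplasmic stretch, and the shared exons encode a common cytoplasmic tail. Single neurons choose a few alternate members of each cluster largely at random, through promoters bound by CTCF and looped by cohesin to distant enhancers, while the C-type members (Pcdhac1, Pcdhac2, Pcdhgc3, Pcdhgc4 and Pcdhgc5) are regulated separately. The proteins bind like with like between cell surfaces, and are known for self-avoidance of neurites and for neuronal survival.

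Values are FPKM, fragments scaled by transcript length and by the mapped total of the library. Rcor2 itself was at 90.6 FPKM in Rcor2fl/fl and 55.7 FPKM in Rcor2cko, a log2 difference of -0.70. The value covers the whole gene and does not separate the floxed exons from the rest. It therefore does not show how much intact mRNA remained. From its RNA-seq reads the study reports no signal over the floxed exons in Rcor2cko cortex at E13.5. By western blot it also reports loss of Rcor2 protein in Rcor2cko brains at E13.5. All log2 differences of FPKM are Rcor2cko over Rcor2fl/fl, after adding 0.1 FPKM to both values, which understates the differences of low genes. Low FPKM values came in steps of 1 fragment, from which scaling totals of 18840441 fragments (Rcor2fl/fl) and 25482135 fragments (Rcor2cko) were recovered. For a transcript of 4000 nt, a count of 0 allows up to 0.0418 FPKM in the first and 0.0310 FPKM in the second, at 3 fragments. The libraries also differed in Xist, at 177 FPKM in Rcor2fl/fl and 0.109 FPKM in Rcor2cko, and in the Y-linked Eif2s3y, at 0 and 19.8 FPKM, so that embryonic sex and genotype cannot be told apart.

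The 58 members lie on the plus strand of mouse chromosome 18 (build NCBIM37, also called mm9). In the GENCODE vM1 annotation the alpha cluster spans 37089939 to 37347311, the beta cluster 37424652 to 37681073 and the gamma cluster 37833989 to 38001527. The deposited files treat the whole stretch as 1 locus of 61 genes, the members and 3 others. The 3 shared alpha exons measure 59, 89 and 2712 nt and make up 52.7% to 54.9% of an alpha transcript. The 3 shared gamma exons measure 59, 89 and 1971 nt and make up 41.7% to 47.3% of a gamma transcript. A fragment from a shared exon belongs to no single member, so the level of one alpha or gamma gene is an estimated split of a common pool.

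That difference in gene structure was visible in the values. Converted to fragments, all 22 beta genes came out as whole numbers, within 0.1, in both libraries. Of the 14 alpha genes, 3 were whole in Rcor2fl/fl and 1 in Rcor2cko, and of the 22 gamma genes 2 and 4 were whole. Counting intervals are therefore given for single beta genes and for cluster totals, and not for single alpha or gamma genes. They are exact (Clopper-Pearson) 95% intervals and cover counting error only, neither differences between embryos nor between preparations. Beta genes resemble one another in sequence, and how reads matching several of them were counted is not given in the sources used here, so the division of fragments among them is uncertain.

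**Figure D1:**
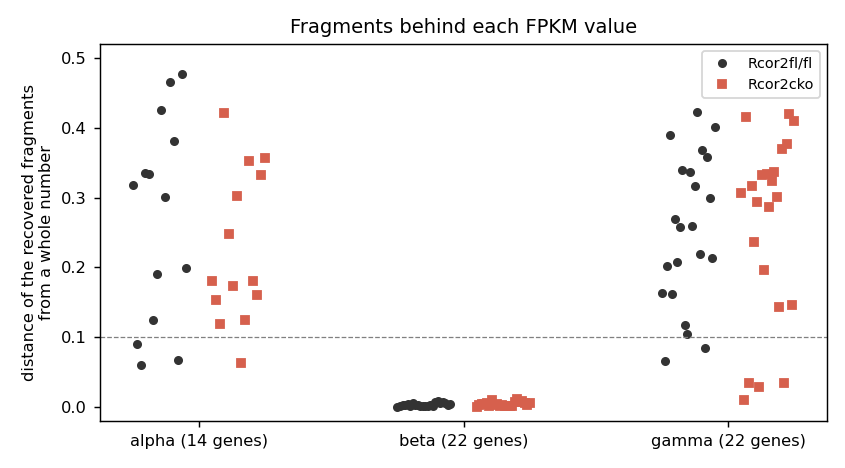
Distance of each member's recovered fragment number from the nearest whole number, by cluster and library, with a dashed line at 0.1. The 22 beta genes lie below the line in both libraries, and most alpha and gamma genes lie above it.

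The gamma cluster held most of the protocadherin RNA. Its members summed to 111 FPKM in Rcor2fl/fl and 107 FPKM in Rcor2cko. The alpha members summed to 13.8 and 14.8 FPKM, and the beta members to 22.5 and 16.1 FPKM. Gamma took 75.4% of the summed protocadherin FPKM in Rcor2fl/fl and 77.6% in Rcor2cko, alpha 9.35% and 10.7%, and beta 15.2% and 11.6%. The median gamma gene was at 2.91 FPKM in Rcor2fl/fl and 3.16 FPKM in Rcor2cko, above the median alpha gene at 0.862 and 0.853 FPKM and the median beta gene at 0.885 and 0.667 FPKM.

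Pcdhgc3, a C-type gamma gene, was the highest of all members. It was at 39.4 FPKM in Rcor2fl/fl and 35.1 FPKM in Rcor2cko, or 35.4% and 32.7% of the gamma sum. The next gamma genes in Rcor2fl/fl were Pcdhga11 at 7.73 FPKM, Pcdhgb6 at 7.42 FPKM and Pcdhga3 at 5.14 FPKM. In the Rcor2cko library these 3 were at 6.97, 7.38 and 5.82 FPKM. Among beta genes Pcdhb17 was highest, at 3.04 FPKM in Rcor2fl/fl and 2.08 FPKM in Rcor2cko, followed by Pcdhb7 at 2.003 and 1.85 FPKM. Pcdhb19 was at 1.43 and 1.04 FPKM. Among alpha genes Pcdha12 led in Rcor2fl/fl at 2.29 FPKM and Pcdhac2 led in Rcor2cko at 4.13 FPKM. At the low end, Pcdhb1 had 1 fragment in Rcor2fl/fl and 0 in Rcor2cko, and Pcdha1 was at 0.0874 and 0.110 FPKM. Within each cluster the order of members was largely kept between libraries, with Spearman's rho of 0.96 over 14 alpha genes, 0.94 over 22 beta genes and 0.91 over 22 gamma genes. These correlations are across genes, which are not independent replicates, and the alpha and gamma members share exons.

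**Figure D2:**
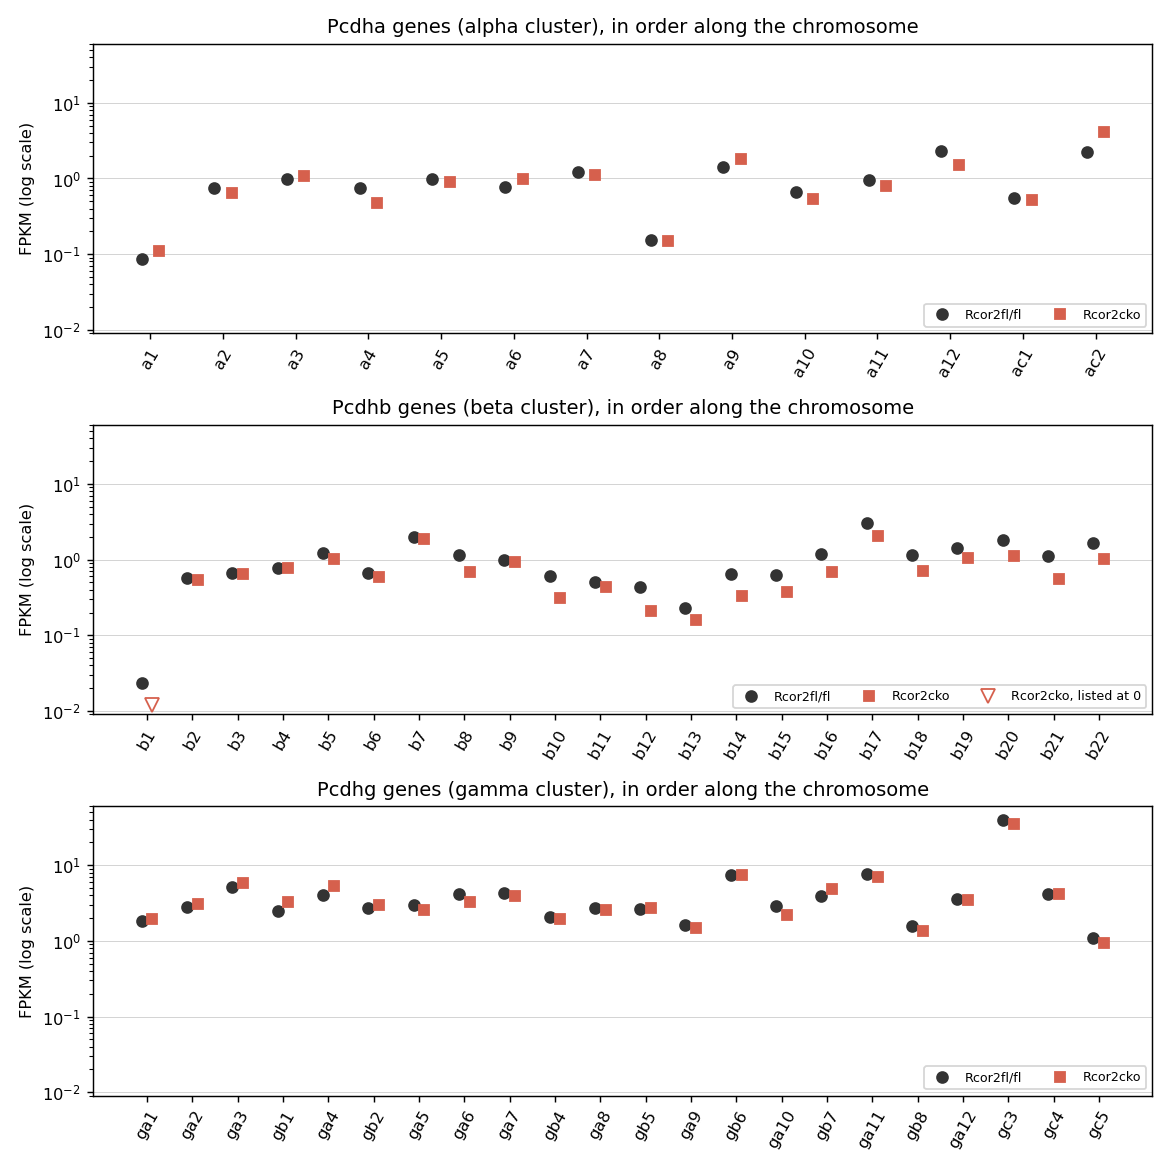
FPKM (log axis) of the 58 members in order along the chromosome, with 1 point per library and an open triangle for Pcdhb1, listed at 0 in Rcor2cko. Pcdhgc3 stands at 39.4 and 35.1 FPKM, above every other member, and the points of the later beta genes lie lower in Rcor2cko.

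The clusters differed in how the libraries compared. The beta total was lower in Rcor2cko, while the alpha total was slightly higher and the gamma total slightly lower. Beta genes gave 1393 fragments in Rcor2fl/fl and 1345 in the deeper Rcor2cko library, a log2 difference per scaling total of -0.49 (interval -0.60 to -0.38), or a ratio of 0.714. Alpha genes gave 1325 and 1929 fragments, a log2 difference of 0.11 (interval 0.0046 to 0.21). Gamma genes gave 9380 and 12210 fragments, a log2 difference of -0.06 (interval -0.09 to -0.02). Of all protocadherin fragments, beta genes took 11.5% (exact interval 10.95% to 12.1%) in Rcor2fl/fl and 8.69% (8.25% to 9.14%) in Rcor2cko, and these intervals did not overlap. Alpha genes took 10.95% (10.4% to 11.5%) and 12.5% (11.9% to 12.99%), also without overlap but in the other direction. The gamma intervals, 76.8% to 78.27% and 78.20% to 79.5%, overlapped. Over all 58 members the summed level was 148 FPKM in Rcor2fl/fl and 138 FPKM in Rcor2cko, a log2 difference of -0.09. In bulk tissue, fewer cells of a type and less RNA per cell cannot be told apart.

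**Figure D3:**
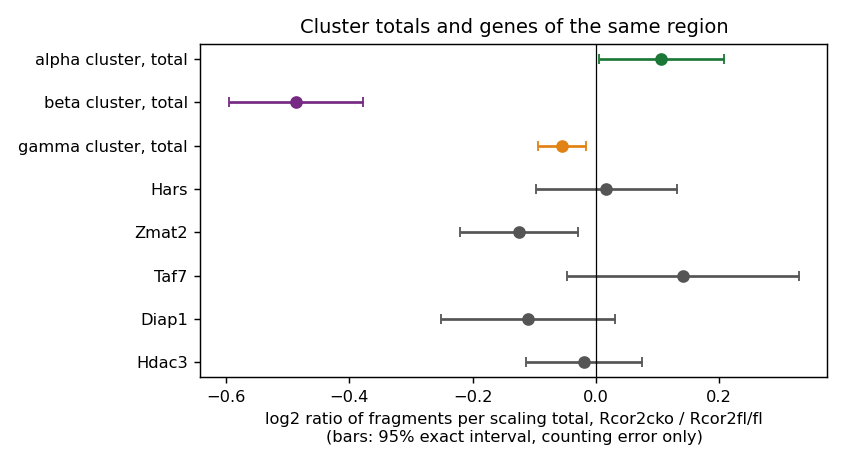
Log2 ratio (Rcor2cko over Rcor2fl/fl) of fragments per scaling total for each cluster and for 5 of the genes within or beside the locus, with exact 95% intervals that cover counting error only. The genes drawn are Hars, Zmat2, Taf7, Diap1 and Hdac3. Others are not drawn, among them Hars2 and Arap3, whose intervals lay above 0. The beta total is at -0.49, with an interval from -0.60 to -0.38, and lies below all the other values drawn.

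Genes whose mean over the libraries reached 0.5 FPKM were compared against a 1.5-fold difference. Of 12477 such genes, 542 (4.34%) were higher and 268 (2.15%) lower in Rcor2cko by more than 1.5-fold. The filter kept 50 of the 58 members, 12 alpha, 16 beta and all 22 gamma genes. The 8 that it left out were Pcdha1, Pcdha8, Pcdhb1, Pcdhb10, Pcdhb11, Pcdhb12, Pcdhb13 and Pcdhb14. Past 1.5-fold, 1 of the 50 was higher in Rcor2cko, Pcdhac2, and 7 were lower, all of them beta genes. With a pseudocount of 0.01 FPKM or quantile normalization 9 were lower, the added ones being the alpha genes Pcdha4 and Pcdha12. These 7 are 43.8% of the 16 beta genes compared. Of all 58 members, 44 had a log2 difference below 0, made up of 9 of 14 alpha, 21 of 22 beta and 14 of 22 gamma genes. Many other genes were below 0 as well. The share was 57.6% among single-exon genes, and 56.4%, 53.5% and 45.3% in the length, GC and level ranges of the beta genes. The alpha and gamma counts are not far above the first 3 of these shares. The median log2 difference was -0.09 for alpha, -0.47 for beta and -0.07 for gamma genes, beside -0.03 over all genes compared.

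**Figure D4:**
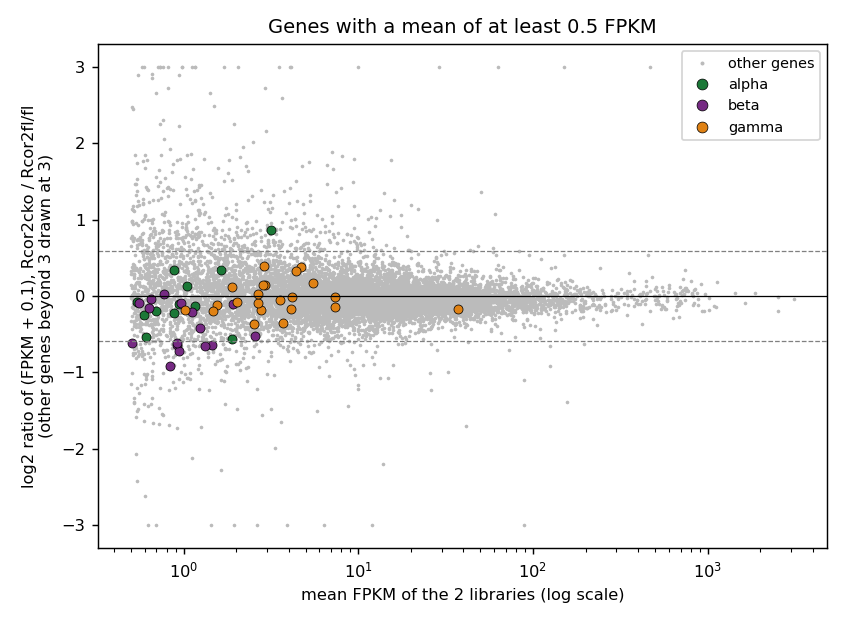
Log2 difference (Rcor2cko over Rcor2fl/fl, after adding 0.1 FPKM) against the mean FPKM of the libraries (log axis) for all genes with a mean of at least 0.5 FPKM, with the clusters in colour, dashed lines at 1.5-fold and other genes beyond 3 drawn at 3. Of the 16 beta genes 7 lie below the lower line, and 1 alpha gene, Pcdhac2, lies above the upper.

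The 7 beta genes past 1.5-fold were Pcdhb8, Pcdhb15, Pcdhb16, Pcdhb18, Pcdhb20, Pcdhb21 and Pcdhb22. GENCODE vM1 lists 4 of them, Pcdhb8, Pcdhb18, Pcdhb20 and Pcdhb22, with a transcript of 2 exons, and Pcdhb20 as a pseudogene. Pcdhb21 was at 1.12 FPKM (53 fragments) in Rcor2fl/fl and 0.547 FPKM (35 fragments) in Rcor2cko, a log2 difference of -0.91. Pcdhb16 was at 1.202 FPKM (115 fragments) and 0.689 FPKM (89 fragments), a log2 difference of -0.72. Both were lower in Rcor2cko beyond counting error. Pcdhb22 was at 1.64 and 1.01 FPKM, Pcdhb20 at 1.81 and 1.12 FPKM, and Pcdhb18 at 1.14 and 0.706 FPKM. Pcdhb8 was at 1.14 and 0.697 FPKM, and Pcdhb15 at 0.633 and 0.378 FPKM. With a pseudocount of 1 FPKM 0 of the 7 passed 1.5-fold, and with upper-quartile scaling 4 members did.

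On fragment numbers, the interval of the log2 difference lay wholly below 0 for 8 of the 16 beta genes compared and for 11 of all 22. Over 8954 genes with a mean of at least 0.5 FPKM and recovered fragments, 23% had an interval wholly below 0 and 13.7% wholly above. Values above 100 fragments were accepted there without the whole-number check. These shares belong beside the 8 of 16, because the 22 include genes below the filter. No beta gene had an interval above 0. The fragment-based log2 difference was -1.03 for Pcdhb21 (interval -1.69 to -0.39), -0.81 for Pcdhb16 (-1.22 to -0.39) and -0.55 for Pcdhb17 (-0.86 to -0.23). For Pcdhb15, with 31 and 25 fragments, it was -0.75 and the interval, -1.57 to 0.06, included 0. Among the genes below the FPKM filter, Pcdhb14 had 40 fragments in Rcor2fl/fl and 27 in Rcor2cko (-1.003, interval -1.76 to -0.26), and Pcdhb10 had 30 and 21 (-0.95, interval -1.83 to -0.10). The only beta gene with a log2 difference above 0 was Pcdhb4, at 0.02, with 51 and 70 fragments. Near it on the fragment scale were Pcdhb3, with 45 and 59 fragments (-0.04), Pcdhb9, with 54 and 68 (-0.10), and Pcdhb2, with 28 and 35 (-0.11). So were the better covered Pcdhb7, with 125 and 156 (-0.12, interval -0.46 to 0.24), and Pcdhb6, with 27 and 32 (-0.19). Pcdhb5, with 76 and 88 fragments, was at -0.22, and Pcdhb11, with 33 and 38, at -0.23, and their intervals included 0. The least covered after Pcdhb1 were Pcdhb13, with 15 and 14 fragments, and Pcdhb12, with 23 and 15.

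The lower values were mostly those of the later genes along the cluster. From Pcdhb2 to Pcdhb9 the summed level was 8.03 FPKM in Rcor2fl/fl and 7.07 FPKM in Rcor2cko, and the fragment-based log2 difference was -0.16 (interval -0.35 to 0.02). From Pcdhb10 to Pcdhb22 the sums were 14.4 and 9.02 FPKM, and the log2 difference was -0.67 (interval -0.81 to -0.53). Pcdhb8, among the earlier genes, was an exception at -0.71 (interval -1.37 to -0.06). This division was made after the values were seen and carries no test. The groups had similar median lengths, 3280.5 nt for the earlier and 3397 nt for the later genes, and similar median mean levels, 0.846 and 0.832 FPKM. The median GC content was 47.4% (range 45.3% to 52.7%) in the 8 earlier genes. It was 46.6% (range 41.2% to 49.6%) in 12 of the 13 later genes. Across 21 beta genes the log2 difference went with the order along the chromosome, with a Pearson correlation of -0.73 and a Spearman correlation of -0.69. With the log2 mean level the Pearson correlation was 0.06 and the Spearman correlation 0.11. With transcript length they were 0.0046 and 0.21. These are descriptions across neighbouring genes of the same 2 libraries.

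**Figure D5:**
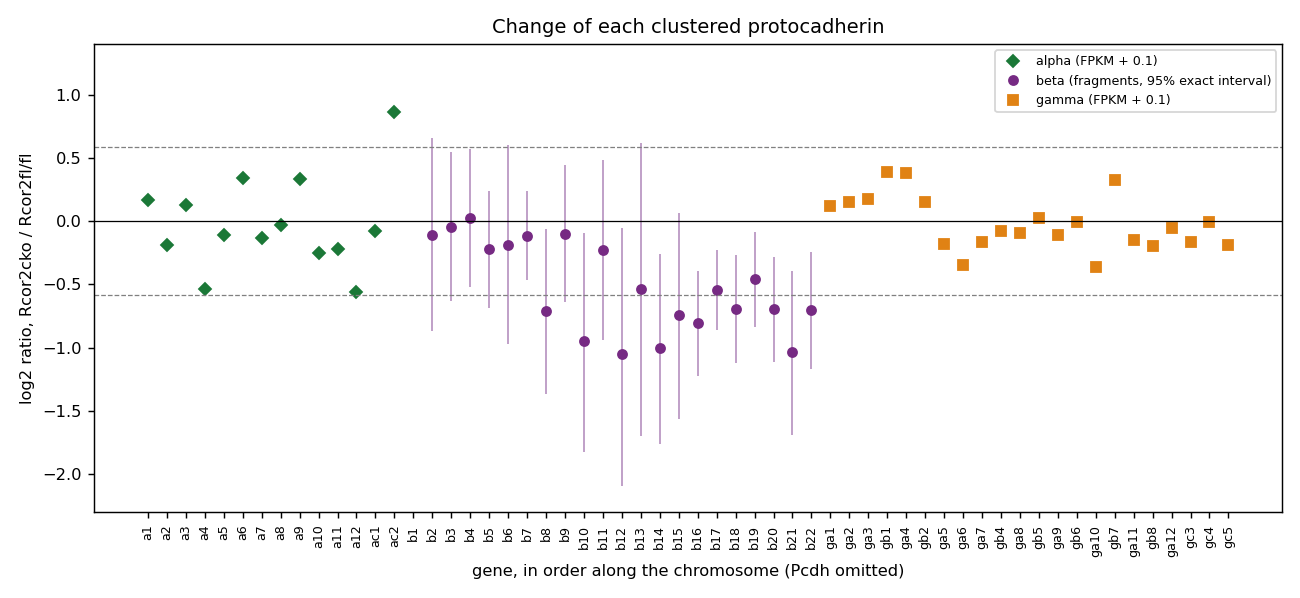
Log2 ratio (Rcor2cko over Rcor2fl/fl) of each member in order along the chromosome, from FPKM + 0.1 for alpha and gamma genes and from fragments, with exact 95% counting intervals as bars, for beta genes; dashed lines mark 1.5-fold, and Pcdhb1 has no ratio. From Pcdhb2 to Pcdhb9 beta genes lie between -0.22 and 0.02 except Pcdhb8 at -0.71, from Pcdhb10 onward they lie between -1.05 and -0.23, the first 6 gamma genes lie above 0, and Pcdhac2 lies highest at 0.87.

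The beta genes were also set beside other genes that resembled them in structure, level or composition. Among 236 other genes with a single exon, 10.6% were lower in Rcor2cko by more than 1.5-fold and the median log2 difference was -0.05. Among 2286 other genes with mean levels from 0.505 to 2.56 FPKM, the range of the beta genes compared, 7.48% were lower and 15.3% higher. Among 4487 other genes in the length range of the beta genes 1.89% were lower, and among 6484 in their GC range 1.63%.

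The alpha cluster differed mainly in Pcdhac2, a C-type gene. Pcdhac2 was at 2.22 FPKM in Rcor2fl/fl and 4.13 FPKM in Rcor2cko, a log2 difference of 0.87, and its part of the alpha sum was 16.1% and 27.9%. The files' own 95% intervals for it, 0 to 5.03 FPKM and 0.498 to 7.76 FPKM, overlapped. The other C-type alpha gene, Pcdhac1, was at 0.557 and 0.521 FPKM. Without Pcdhac2 the log2 difference of the alpha sum was -0.11, so its direction rested on the value assigned to that gene. That value is itself an estimated split of the shared alpha pool. The 12 alternate alpha genes summed to 11.02 FPKM in Rcor2fl/fl and 10.2 FPKM in Rcor2cko. Among them Pcdha12 was at 2.29 and 1.52 FPKM (-0.56) and Pcdha4 at 0.742 and 0.480 FPKM (-0.54), the lowest log2 differences in the cluster. Pcdha9 was at 1.43 and 1.83 FPKM and Pcdha6 at 0.766 and 0.995 FPKM, each with a log2 difference of 0.34. Pcdha3 was at 0.990 and 1.09 FPKM, Pcdha7 at 1.22 and 1.10 FPKM, and Pcdha10 at 0.657 and 0.534 FPKM. With 0.1 FPKM added, none of these alternate genes passed 1.5-fold in either direction. Pcdha4 and Pcdha12 did so with a pseudocount of 0.01 FPKM (-0.62 and -0.59) and with quantile normalization (-0.66 and -0.62).

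The gamma genes kept within 1.5-fold throughout, with log2 differences from -0.36 to 0.39. The highest were Pcdhgb1, at 2.47 FPKM in Rcor2fl/fl and 3.27 FPKM in Rcor2cko, Pcdhga4, at 4.06 and 5.31 FPKM, and Pcdhgb7, at 3.91 and 4.91 FPKM. The lowest were Pcdhga10, at 2.87 and 2.21 FPKM, Pcdhga6, at 4.14 and 3.23 FPKM, and Pcdhgb8, at 1.57 and 1.36 FPKM. The first 6 genes of the cluster, Pcdhga1 to Pcdhgb2, were all above 0 and summed to 18.9 and 22.5 FPKM, a grouping also made after the values were seen. Of the 13 alternate genes that follow, 11 were below 0, and they summed to 47.7 and 44.7 FPKM. By subfamily, gamma A genes summed to 43.8 and 42.6 FPKM and gamma B genes to 22.8 and 24.6 FPKM. The C-type genes Pcdhgc4, at 4.17 and 4.14 FPKM, and Pcdhgc5, at 1.09 and 0.946 FPKM, had log2 differences of -0.01 and -0.19.

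The files' own intervals were wide for this locus. They overlapped between the libraries for all 58 members, and their lower bound was 0 for 52 members in Rcor2fl/fl and 50 in Rcor2cko. In Rcor2fl/fl the median half-width of a member's interval was 7.76 times that given by counting error, beside 2.03 times for 8893 other genes with 1 transcript. The sets were not chosen alike. The other genes had a mean of at least 0.5 FPKM and a lower bound above 0, whereas all 58 members were used.

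The genes within and beside the locus included 2 whose counting interval lay above 0, Hars2 and Arap3, and 1 below, Zmat2. Taf7, a subunit of the general transcription factor TFIID that lies between the beta and gamma clusters, was at 6.64 FPKM in Rcor2fl/fl and 7.34 FPKM in Rcor2cko, with a fragment-based interval from -0.05 to 0.33. Before the alpha cluster, Hars, a histidyl-tRNA synthetase, was at 31.8 and 32.3 FPKM, Hars2, its mitochondrial counterpart, at 10.05 and 11.8 FPKM, and Zmat2 at 40.9 and 37.7 FPKM. After the gamma cluster, the histone deacetylase Hdac3 had a log2 difference of -0.01 and Diap1, a formin that nucleates actin filaments, one of -0.11. Arap3, farther along, was at 1.28 and 1.76 FPKM (0.43, fragment-based interval 0.13 to 0.79). Slc25a2, between the clusters, had 4 and 6 fragments, too few to compare.

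Genes known to regulate the clusters, and genes for partners of the proteins, stayed within 1.5-fold. All 21 regulators were compared and 0 were higher or lower past 1.5-fold, with a median log2 difference of -0.02. Ctcf, which binds the protocadherin promoters, was at 40.7 FPKM in Rcor2fl/fl and 38.1 FPKM in Rcor2cko. Rad21, a cohesin subunit, was at 71.4 and 74.0 FPKM. Smchd1, a chromatin protein that represses the clusters, was at 16.4 and 19.97 FPKM. Among DNA methyltransferases the log2 difference was -0.36 for Dnmt3b and 0.39 for Dnmt3a. Of 15 partner genes 13 were compared, also with 0 past 1.5-fold, and the median was -0.04. Ptk2, a focal adhesion kinase that the alpha and gamma tails bind, was at 38.8 and 36.9 FPKM.

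Markers of several cell types differed between the libraries beside these results. The 6 Cajal-Retzius markers were all lower in Rcor2cko past 1.5-fold and summed to 49.5 FPKM in Rcor2fl/fl and 21.2 FPKM in Rcor2cko. Of 8 interneuron markers 7 were higher, with sums of 33.5 and 80.5 FPKM. Choroid plexus markers summed to 1.04 and 62.9 FPKM, with 3 of 7 compared and all 3 higher, and the defining marker Ttr was listed at 0 in Rcor2fl/fl and at 57.8 FPKM in Rcor2cko. Kl, of the choroid plexus list, and Lum, of the meningeal list, were also listed at 0 in Rcor2fl/fl. Microglia markers summed to 10.52 and 17.5 FPKM, with 3 of 5 higher. Of 6 meningeal markers 2 were compared and 1 was higher, and the list summed to 1.79 and 3.03 FPKM. The higher one was Pdgfra, at 0.267 FPKM in Rcor2fl/fl and 1.22 FPKM in Rcor2cko. Dcn, below the filter, went the other way, at 0.533 and 0.0985 FPKM. Of the 4 cortical identity genes 1 was lower past 1.5-fold, and the list summed to 417 and 321 FPKM. Past 1.5-fold, 0 of 13 neuronal, 0 of 10 progenitor and 0 of 5 endothelial markers differed, and their sums were 1384 and 1329, 905 and 1050, and 25.9 and 27.7 FPKM. Of the progenitor markers 6 had a log2 difference below 0 and 4 above, with a median of -0.08. The largest rise among them was that of Fabp7, at 372 FPKM in Rcor2fl/fl and 539 FPKM in Rcor2cko (0.53). The largest fall was that of Hes1, at 12.5 and 8.57 FPKM (-0.53). Fabp7 had the highest level of the list, and the higher progenitor sum in Rcor2cko rested on it. The part of these marker differences in the protocadherin values was not tested.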

How the data were processed

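RNA-seq was made by the study from VZ–SVZ tissue with a stranded mRNA kit, 1 library per genotype. The authors deposited FPKM values, per transcript for Rcor2fl/fl and per gene for Rcor2cko, with lengths and 95% intervals. The submitters' processing notes name TopHat 1.3.3 and Cufflinks 1.2.0, and the study's methods another TopHat release with mm9. Here transcript values were summed per gene, and all 58 members had 1 transcript. Log2 ratios used a pseudocount of 0.1 FPKM, and calls needed a mean of at least 0.5 FPKM and more than 1.5-fold. Fragment numbers were recovered from the steps of low FPKM values. The method was tried on simulated whole counts scaled by the same formula, without reads shared between genes. That trial could not check genes that share reads. Of values up to 100 fragments, 99.5% were whole within 0.1 in each library. Exact intervals used scipy. Without replicates there was no test. The rule for named members took the C-type genes, any member listed at 0, and the 5 highest and the most different genes of each cluster. Values of further members, mostly beta genes, are also given. Members, gene lists and rules were chosen with earlier results of these data known. Map2 was not matched. Positions are from GENCODE vM1.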

Additional observations from a re-analysis of the deposited data

How the results depend on the processing

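The log2 difference (Rcor2cko over Rcor2fl/fl) of the beta sum was between -0.42 and -0.59 under the 4 other scalings tried. The sum of all members, at -0.09, was -0.059 with median-ratio scaling and -0.031 with upper-quartile scaling. The alpha sum, at 0.10, was -0.11 without Pcdhac2, so its direction rests on the value assigned to that gene, an estimated split. The gamma sum, at -0.05, was 0.012 with upper-quartile scaling and 0.0075 without Pcdhgc3. The median over members, at -0.15, was -0.074 with a pseudocount of 1, -0.094 with upper-quartile scaling, -0.22 with quantile scaling and -0.11 among genes at 1 FPKM or more in both libraries. The number of members lower past the threshold, 7, was 0 with a pseudocount of 1, 4 with upper-quartile scaling, 2 among genes at 1 FPKM or more in both libraries, 0 at 2-fold and 0 when the files' intervals had to be separate. It was 10 with no filter, and 9 with a pseudocount of 0.01 or quantile normalization, which add the alpha genes Pcdha4 and Pcdha12. The number higher, 1, was 0 at 2-fold and 0 with separate intervals. The sign of 7 of the 58 members differed under some alternative. No paired analysis was possible because each genotype has 1 library. Depth limits single beta genes, most of which rest on fewer than 100 fragments.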
